A study of Mus musculus with 40 samples.

Results

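The last step of the conversion of WT white preadipocytes to brown-like adipocytes, from day 6 to day 9, was examined in 6 H3K27ac ChIP-seq libraries, 3 per day, of the 24 in the series. H3K27ac is acetylation of histone H3 at lysine 27, measured by sequencing the DNA bound to an antibody against it. Peaks sharing 1 bp or more across the 6 lists were merged, which gave 149426 regions. Of these, 2339 were gained (called in 3 of 3 day 9 and 0 of 3 day 6 libraries, 1.57% of all regions), 2743 were lost (the reverse, 1.84%), 44377 were kept (called in 6 of 6 libraries, 29.7%) and 99967 (66.9%) had another pattern and are named mixed here. These counts follow from the rule and carry no test.

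Both groups were WT cells of strain C57BL/6, grown from preadipocytes of the inguinal fat pad of mice 8 to 12 weeks old. The cells received differentiation medium with rosiglitazone, T3, IBMX, dexamethasone and insulin for 4 days, followed by maintenance medium with T3 and insulin for another 4 days. Day 6 cells are labelled as differentiating and day 9 cells as brown-like adipocytes, and how day 9 follows from 8 days of media is not stated. Values of DKO cells (Hmgn1-/-Hmgn2-/-), which lack the nucleosome-binding proteins HMGN1 and HMGN2 and received the same media, and of WT days 0 and 3 are given only where they describe the same regions or genes. The study calls the libraries of a group biological replicates and does not say whether they came from separate animals or cultures, so p-values measure the spread between these libraries, which may be technical.

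H3K27ac lies on nucleosomes beside active promoters and enhancers, and enhancers carry it in a more cell-type-specific way than promoters. In adipocytes PPARG and C/EBP factors occupy enhancers of lipid genes, and brown-like cells add genes of thermogenesis such as Ucp1. Fat cell formation also brings a change in cell shape and surroundings, with less of the contractile actin cytoskeleton and a remodelled extracellular matrix. In bulk cells, fewer cells with the mark and less mark per cell cannot be told apart.

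The stretches below are the 201 bases around the strongest summit (mm10, plus strand) of the regions on which the account turns, from the strongest gained and lost regions, the kept regions that changed most in height, and a lost region in the Pparg gene. Capitals mark matches to 3 of 10 searched motifs on either strand: CATTCC (TEAD factors), CCCNNGGGA (early B cell factors, EBF) and CACGTG (an E-box of bHLH factors). Within 100 bp of the strongest summit, 11.3%, 3.56% and 2.65% of all 149426 regions held these letters, so single matches are common. The stretches without capitals hold none of the 3.
Gained near Dusp14, chr11:84072788-84072988: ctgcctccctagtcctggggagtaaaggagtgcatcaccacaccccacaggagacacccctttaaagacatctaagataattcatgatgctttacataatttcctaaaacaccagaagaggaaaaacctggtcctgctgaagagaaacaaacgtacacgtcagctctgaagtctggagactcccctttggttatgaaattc
Gained in Lgi2, chr5:52565179-52565379: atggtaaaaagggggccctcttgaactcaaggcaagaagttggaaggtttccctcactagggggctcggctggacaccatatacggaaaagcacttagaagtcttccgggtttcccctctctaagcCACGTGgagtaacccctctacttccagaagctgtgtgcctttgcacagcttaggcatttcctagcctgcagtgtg
Gained near Ptgis, chr2:167261480-167261680: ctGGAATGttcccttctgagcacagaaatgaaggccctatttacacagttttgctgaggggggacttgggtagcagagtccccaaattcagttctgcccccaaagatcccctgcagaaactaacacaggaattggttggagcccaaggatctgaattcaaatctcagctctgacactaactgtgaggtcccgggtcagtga
Lost near Sgo2b, chr8:63996046-63996246: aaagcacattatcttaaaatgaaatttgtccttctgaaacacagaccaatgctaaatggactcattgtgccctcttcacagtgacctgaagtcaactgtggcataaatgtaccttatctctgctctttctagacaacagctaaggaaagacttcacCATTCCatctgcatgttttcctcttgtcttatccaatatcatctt
Lost near Slc38a4, chr15:96935938-96936138: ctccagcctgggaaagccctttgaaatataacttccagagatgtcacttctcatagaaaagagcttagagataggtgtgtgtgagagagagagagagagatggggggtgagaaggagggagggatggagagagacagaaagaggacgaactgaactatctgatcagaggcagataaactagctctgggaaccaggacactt
Lost in Cacnb4, chr2:52591554-52591754: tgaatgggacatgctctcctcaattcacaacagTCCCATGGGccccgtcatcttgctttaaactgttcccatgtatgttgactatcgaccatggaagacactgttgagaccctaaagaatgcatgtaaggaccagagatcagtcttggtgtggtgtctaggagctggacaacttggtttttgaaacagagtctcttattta
Lost in Pparg, chr6:115363079-115363279: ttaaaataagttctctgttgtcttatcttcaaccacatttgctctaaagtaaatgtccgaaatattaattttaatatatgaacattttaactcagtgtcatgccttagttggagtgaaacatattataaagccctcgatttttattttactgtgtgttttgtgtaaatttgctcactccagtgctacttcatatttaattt
Kept and higher near Rac2, chr15:78581813-78582013: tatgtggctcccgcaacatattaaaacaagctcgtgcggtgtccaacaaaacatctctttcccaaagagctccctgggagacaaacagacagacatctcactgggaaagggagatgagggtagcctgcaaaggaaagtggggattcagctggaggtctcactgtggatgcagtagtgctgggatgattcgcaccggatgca
Kept and lower near Slit2, chr5:47912936-47913136: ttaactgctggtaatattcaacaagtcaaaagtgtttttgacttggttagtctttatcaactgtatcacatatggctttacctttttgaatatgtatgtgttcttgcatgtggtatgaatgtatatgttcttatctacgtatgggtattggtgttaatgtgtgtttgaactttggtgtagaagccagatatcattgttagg

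The extent of the mark was first compared, since more peaks in 1 group would give more gained regions by number alone. The day 6 libraries held 102234, 98503 and 105511 peaks and the day 9 libraries 91488, 111761 and 105173. The days overlapped, with both the lowest and the highest number at day 9, and the means of 102083 ± 3506 and 102807 ± 10341 (SD, n = 3) differed by 725 peaks (exact permutation test, two-sided, p = 1.0). The length of genome under peaks was 56.4, 55.5 and 60.4 Mb at day 6 and 48.2, 59.6 and 58.6 Mb at day 9 (difference −2.02 Mb, exact permutation p = 0.8). The share of peaks with a summit within 1 kb of a transcript start was 27.6, 27.9 and 26.98% at day 6 and 29.9, 26.8 and 27.2% at day 9 (difference 0.471 percentage points, exact permutation p = 0.9). WT day 9 replicate 1 had the fewest peaks and the highest promoter share. Background reads per kb, a measure of depth recovered from the lists, ranged from 9.81 to 11.2 (day 6) and from 9.95 to 11.8 (day 9). With 3 against 3 libraries no p below 0.1 is possible.

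The label of fat cells was checked against marker genes by the length of sequence under peaks, tested with limma as described below. Of 10 adipocyte markers, 9 had enough length under peaks to be tested. Pparg and Lpl were lower at day 9 (22.2%, against 3.58% of all genes tested). None was higher (0%, against 3.29% of all genes tested). Summed over the 10 genes, from 5 kb upstream of each gene to its end, 111 to 117 kb lay under peaks at day 6. The sum was 82.0 to 94.3 kb at day 9, without overlap, and had a mean of 16.7 kb at day 0. Pparg and Lpl are part of this sum. Of single genes tested, 17.5% also had day 6 above day 9 without overlap. Adipoq (adiponectin) held 5.18, 5.04 and 5.51 kb at day 6 and 4.73, 5.66 and 5.598 kb at day 9, and 0 kb in the day 0 libraries. Of the other cell types, 0 of 3 tested endothelial markers, 0 of 6 immune markers and 0 of 3 glial, muscle and mesothelial markers passed the test (1, 3 and 0 at an unadjusted p under 0.05). Cdh5, Tie1, Erg and Sox17 of endothelium and Sox10, Myod1, Myog and Myh4 of glia and muscle had no peak in any of the 6 libraries. The 10 immune genes together held 14.2 to 16.8 kb at day 6 and 10.7 to 13.6 kb at day 9. These sums did not overlap, as at 17.5% of all tested genes with day 6 above. The part of this difference in the results was not tested.

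**Figure D1:**
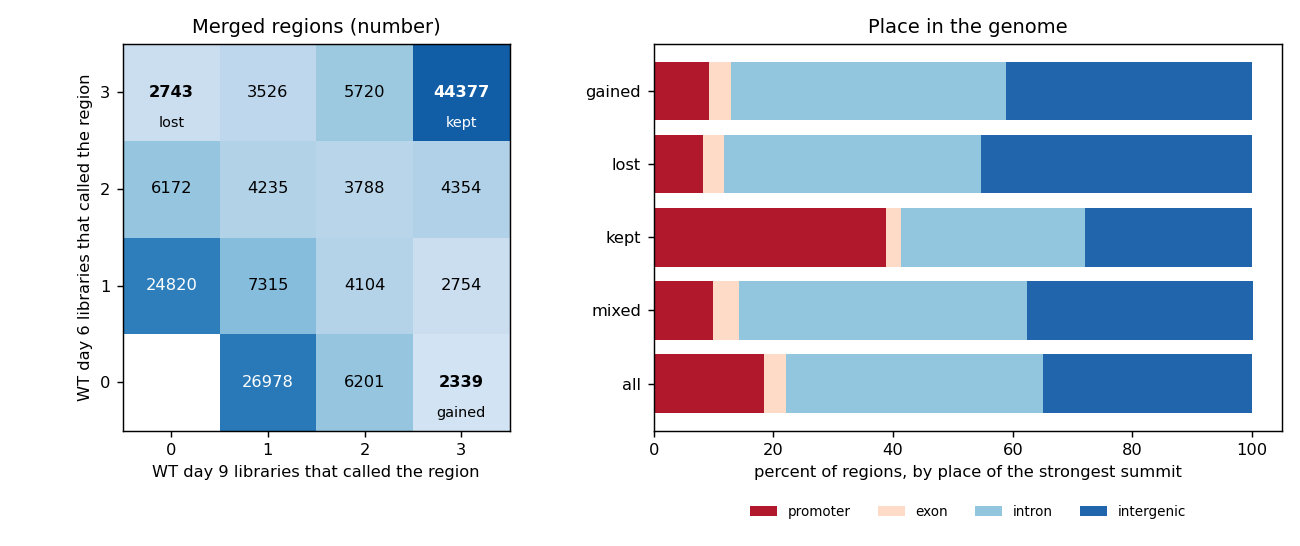
Left, number of merged regions by how many of the 3 WT day 6 libraries (vertical) and 3 WT day 9 libraries (horizontal) called them; right, percentage of each class by place of the strongest summit, with promoter meaning within 1 kb of a transcript start. The 2339 gained and 2743 lost regions are few beside 44377 kept regions and lie mostly in introns and between genes.

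Gained and lost regions were narrower and weaker than kept regions and less often at promoters, as were mixed regions. Kept regions join peaks of 6 lists and had to be called in each, so the rule itself favours wide and strong ones. The part of the rule in these differences was not tested. The median width was 452 bp for gained, 441 bp for lost and 1059 bp for kept regions, and the median summit fold, the enrichment of reads over local background, was 4.86, 4.80 and 8.10. Over all regions the medians were 375 bp and 4.83, and over mixed regions 266 bp and 4.43. The strongest summit lay at a promoter in 9.23% of gained, 8.28% of lost and 38.9% of kept regions, and in 9.98% of mixed and 18.5% of all regions. Introns held 46.0% and 42.9% of gained and lost regions and intergenic sequence 41.1% and 45.3%. About equal shares, 50.9% and 52.3%, lay within 5 kb of a kept region. The median GC content around the summit was 48.8% in gained and 45.3% in lost regions, against 48.3% in all regions. Just outside the rule, 6201 regions were called in 2 day 9 and 0 day 6 libraries, 2754 in 3 day 9 and 1 day 6 library, 6172 in 2 day 6 and 0 day 9 libraries and 3526 in 3 day 6 and 1 day 9 library. Between libraries, the base pairs shared as a fraction of the joint length (Jaccard index) were 0.631 to 0.638 within day 6, 0.595 to 0.624 within day 9 and 0.547 to 0.573 across days.

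Of the 5 gained regions with the highest median −log10 q, 2 lay in introns and 3 between genes. The region 3.63 kb upstream of Dusp14, a phosphatase of MAP kinases, had summit folds of 6.64, 9.77 and 9.61 in the day 9 libraries and was called in 0 of 6 WT libraries of days 0 and 3, in 0 of 3 DKO day 6 libraries and in 3 of 3 DKO day 9 libraries. The intronic region in Lgi2, a secreted leucine-rich repeat protein, had folds of 7.09, 9.16 and 9.25. Unlike the Dusp14 region it was called in 3 of 3 libraries at day 0 and at day 3, so it was absent from the WT lists at day 6 only. The region 21 kb upstream of Ptgis, prostacyclin synthase, had folds of 9.84, 8.16 and 10.6 and was likewise called at day 0 (3 libraries) and day 3 (2 libraries). The other regions of the 5 lay 26.2 kb upstream of Zfp983, a zinc finger gene, and in an intron of Tns3, a focal adhesion protein. All 5 were called in 0 DKO day 6 and 3 DKO day 9 libraries.

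Of lost regions, the strongest lay 43.9 kb upstream of Sgo2b, a gene of the shugoshin family, with folds of 8.50, 11.3 and 9.66 at day 6. It was only 272 bp wide and was called in 0 of the libraries of WT days 0 and 3. The lost region 83.9 kb downstream of the start of Slc38a4, a neutral amino acid transporter, had folds of 10.8, 9.57 and 9.26. It was called in 3 of 3 WT day 3 and 3 of 3 DKO day 6 libraries and in 1 DKO day 9 library. A kept region beside it (chr15:96936475-96936892) had folds of 13.9, 13.4 and 15.1 at day 6 and 5.41, 5.82 and 4.37 at day 9, a log2 difference of −1.40 (limma, adjusted p = 0.000129). The Slc38a4 gene window itself went the other way, from a mean of 0.326 kb ± 0.286 to 1.73 kb ± 0.233 under peaks (SD, n = 3, log2 1.49, limma adjusted p = 0.0156), so the nearest gene of a region need not share its direction. The intronic region of Cacnb4, a calcium channel subunit, had folds of 11.6, 7.10 and 9.05 and was called in 3 WT day 3 libraries. The remaining regions of the 5 lay in an intron of Cdkal1, a tRNA-modifying enzyme, and upstream of Itm2b, a membrane protein, and with widths of 234 and 249 bp they were narrow like that near Sgo2b.

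**Figure D2:**
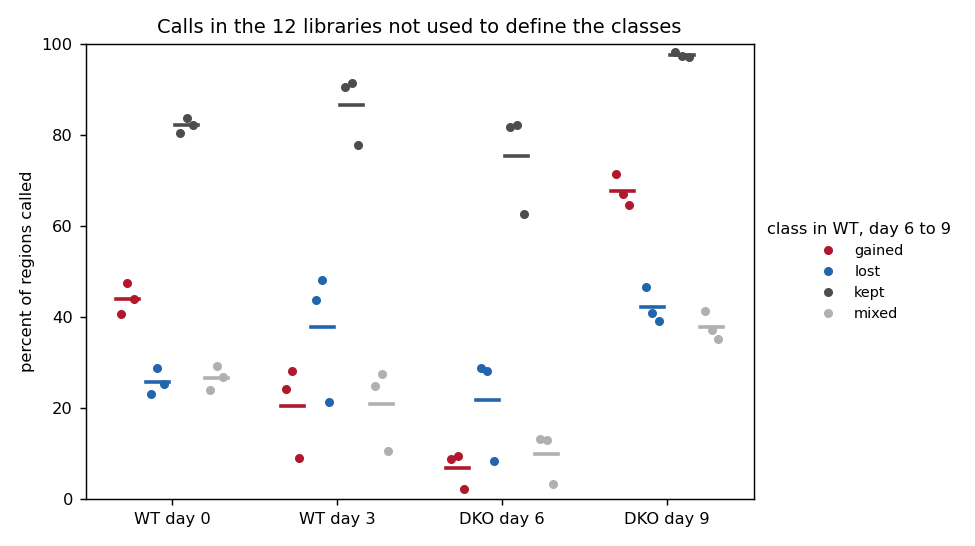
Percentage of the gained, lost, kept and mixed regions that each of 12 libraries outside the rule called, by group, with points for libraries and bars for means of 3. Gained regions were called more at WT day 0 and DKO day 9 than at WT day 3 and DKO day 6, and lost regions were called at WT day 3 with the shallow replicate 3 as the lowest point.

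The classes were next followed in the 12 libraries that the rule did not use. Gained regions were called in 40.6, 47.5 and 44.0% of cases in the WT day 0 libraries and in 24.1, 28.2 and 8.94% in the day 3 libraries, without overlap (difference −23.7 percentage points, exact permutation p = 0.1). Lost regions ran the other way in the mean, with 23.0, 28.7 and 25.3% at day 0 and 43.8, 48.1 and 21.4% at day 3, but the days overlapped through WT day 3 replicate 3 (exact permutation p = 0.4). That library had 4.52 background reads per kb and 68629 peaks, the fewest of the WT libraries. Kept regions were called in 82.1% ± 1.66 (SD, n = 3) at day 0 and mixed regions in 26.6% ± 2.60. In each day 0 library the share of gained regions was above those of lost and mixed regions, and 1022 gained regions (43.7%) were present in 2 or more day 0 libraries. Of these, 479 (20.5% of gained) had no call at day 3 and so were absent at 2 sampled days before day 9, while 732 (31.3%) had no call at either day. Of lost regions, 440 (16%) had no call at day 0 and 2 or more at day 3, 655 (23.9%) were present in 2 or more libraries at day 0, and 858 (31.3%) had no call at day 0 or day 3.

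In DKO cells the gained regions were called more often at day 9 than at day 6, without overlap of the libraries. They were called in 8.81, 9.36 and 2.14% of cases in the DKO day 6 libraries and in 71.4, 67.0 and 64.5% in the DKO day 9 libraries, a difference of 60.8 points (two-sided exact permutation p = 0.1, the lowest that 3 against 3 libraries allow). Lost regions were also called more often, from 28.9, 28.0 and 8.35% to 46.6, 40.9 and 39.0% (difference 20.4 points, exact permutation p = 0.1), as did kept regions, from a mean of 75.5 to 97.6%, and mixed regions, from 9.78 to 37.9%. With the 20000 strongest peaks of each library, which gives all libraries the same number, the difference was 41.2 points for gained and −12.1 points for lost regions (exact permutation p = 0.1 each), so only that of lost regions changed sign. The DKO day 6 libraries held 74867, 71869 and 47448 peaks against 115923, 112348 and 111219 at day 9, and the part of this difference in the calls was not tested. At single regions, 833 gained regions (35.6%) were called in 3 of 3 DKO day 9 and 0 of 3 DKO day 6 libraries, against 203 lost (7.40%) and 8.07% of kept regions, and 14 lost regions (0.51%) but 0 gained ones showed the reverse.

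The step itself differed between genotypes in size. From day 6 to day 9 the number of peaks moved by 725 in WT and by 48435 in DKO cells, a difference of 47711 (exact permutation of genotype within each day, two-sided, p = 0.01, adjusted p = 0.01). Covered length moved by −2.02 Mb in WT and 33.7 Mb in DKO cells (difference 35.8 Mb, exact permutation p = 0.005, the lowest this design allows, adjusted p = 0.01). In DKO cells 15682 regions of 144037 were gained and 87 lost, against 2339 gained and 2743 lost of 149426 in WT cells. The difference of the step, tested for each of 13361 genes as below, was above 0 for 7962 (59.6%) and below 0 for 3 (0.0225%; limma, adjusted p under 0.05). After division by each library's covered length these counts were 1318 and 3239.

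Genes were compared by the length under peaks within them and 5 kb upstream, in kb, and a difference is given as log2 of (kb + 0.5). Of 13420 genes tested, 441 (3.29%) were higher and 480 (3.58%) lower at day 9 (limma, adjusted p under 0.05). The median log2 difference over all genes was −0.03, and 0.01 after division by each library's covered length, which called 1182 genes higher and 953 lower and included 441 and 472 of the genes above. Libraries of the 2 days did not overlap at any of the called genes, against 11.1% of all tested genes with day 9 above and 17.5% with day 6 above. Without WT day 9 replicate 1, 895 genes were higher and 527 lower. With every peak set to 250 bp either side of its summit, so that widths no longer differ between peaks, 135 genes were higher and 112 lower, and of 64 genes named in the text 10 kept their call. Of the 441 higher genes 250 were nearest to a gained region, and of the 480 lower genes 274 to a lost region. Over all genes, 1725 and 1834 were nearest to such regions. Length under peaks and region classes come from the same peak calls, so these counts carry no test. Where genes overlap, a peak counts for each of them.

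**Figure D3:**
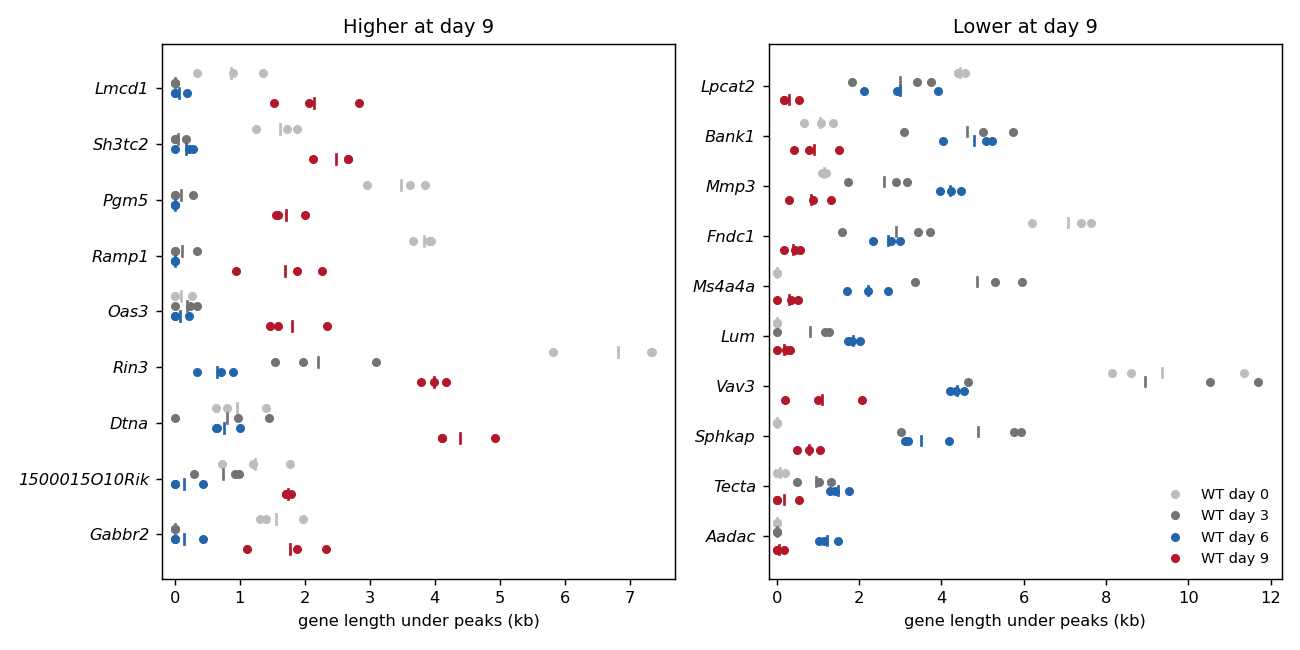
Length under peaks (kb, from 5 kb upstream to the gene end) for genes with the largest log2 differences in each direction (9 higher and 10 lower), with a point per WT library at days 0, 3, 6 and 9 and a bar at each mean of 3. At Pgm5, Ramp1 and Rin3 the day 9 libraries lay above day 6 and below day 0, while Lum and Sphkap had no peak at day 0 and were highest at day 3 or day 6.

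The 10 genes with the largest increases had few or no peaks at day 6, so the size of their log2 differences depends on the 0.5 kb added to each value. Lmcd1, a LIM domain transcriptional cofactor, held 0, 0.186 and 0 kb at day 6 and 2.06, 2.84 and 1.53 kb at day 9 (log2 2.22, SE 0.21, limma adjusted p = 0.00197). Pgm5, a phosphoglucomutase-related protein of cell junctions, held 0 kb in each day 6 library and 1.58, 2 and 1.56 kb at day 9. Ramp1, a subunit of the CGRP receptor, held 0 kb in each day 6 library and 0.942, 2.26 and 1.89 kb at day 9. Both had held more at day 0, with means of 3.48 and 3.84 kb. Rin3, a Rab5 exchange factor in endocytosis with 6 gained regions, rose from 0.344, 0.713 and 0.903 kb to 4.17, 4.00 and 3.79 kb (log2 1.99, SE 0.17, adjusted p = 0.00161) and had 6.83 kb at day 0. Sh3tc2, Oas3, Dtna, 1500015O10Rik and Gabbr2 were also of this group, and the genes named had log2 differences of 1.84 to 2.22. Each of these kept its call when any 1 library was left out, but Ramp1, Oas3, 1500015O10Rik and Gabbr2 lost it with peaks set to 250 bp either side of the summit.

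The 10 genes with the largest decreases included the matrix genes Mmp3 and Lum. Lpcat2, an acyltransferase of phospholipid and platelet-activating factor synthesis, fell from 2.11, 2.93 and 3.90 kb to 0.168, 0.527 and 0.185 kb (log2 −2.13, SE 0.22, limma adjusted p = 0.00291). Mmp3, stromelysin, fell from 4.22, 3.96 and 4.47 kb to 0.286, 0.878 and 1.31 kb (log2 −1.91, SE 0.26, adjusted p = 0.00679). Lum, the collagen-binding proteoglycan lumican, fell from 1.83, 1.72 and 2.03 kb to 0, 0.223 and 0.317 kb (log2 −1.82, SE 0.19, adjusted p = 0.00278). Lum had no peak at day 0 and a mean of 0.815 kb at day 3, so its length under peaks was highest at day 6 of the 4 days. Bank1, Fndc1, Ms4a4a, Vav3, Sphkap, Tecta and Aadac made up the 10, with log2 differences of −1.98 to −1.63. Vav3, a guanine nucleotide exchange factor with 7 lost regions, lost its call without any of the 3 day 6 libraries or WT day 9 replicate 3 (log2 −2.24 to −1.31 over the 6 fits), and Tecta without any of the 3 day 6 libraries (−1.99 to −1.45). With peaks set to 250 bp either side of the summit Fndc1 alone of the 10 kept its call. The DKO libraries did not share 1 course for these genes. Lpcat2, Mmp3 and Sphkap held means of 0.244, 0.109 and 0.209 kb at DKO day 6 and 0.315, 0.618 and 0.489 kb at DKO day 9. Ms4a4a held 3.41, 4.05 and 2.26 kb at DKO day 6 and 1.252, 0.707 and 1.02 kb at DKO day 9, a fall as in WT cells (log2 −1.31, limma adjusted p = 0.000799). Vav3 held means of 2.24 and 2.03 kb and Aadac of 0.981 and 0.566 kb, differences that did not pass.

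The called genes were followed over the 4 days. The 441 higher genes had a median of 2.13 to 2.63 kb at day 0, 1.02 to 1.70 kb at day 3, 1.67 to 1.73 kb at day 6 and 2.91 to 3.38 kb at day 9. The 480 lower genes had 1.83 to 2.23 kb at day 0, 1.64 to 3.05 kb at day 3, 3.68 to 3.94 kb at day 6 and 2.05 to 2.39 kb at day 9. The median of the higher genes was thus lowest at days 3 and 6, and that of the lower genes highest at day 6. The lowest day 3 values, 1.02 and 1.64 kb, were those of the shallow WT day 3 replicate 3. The day 6 and day 9 values chose the genes, so the difference between these days follows from the choice and carries no test. In DKO cells 432 of the 435 higher genes that could be fitted also rose and 0 fell, with 0 negative values (median log2 1.62), and 280 of 473 lower genes rose and 3 fell (median 0.55), against 10164 risen and 7 fallen of all 13361 genes (median 0.62). After division by covered length, 348 of the 435 higher genes rose and 4 fell in DKO cells (median 0.95), and 45 of the 473 lower genes rose and 232 fell (median −0.32), against 2587 risen and 5458 fallen of all genes (median −0.21). The direction of the lower genes in DKO cells thus depended on this scaling and that of the higher genes did not.

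Some genes were nearest to many gained or lost regions. The genes of this paragraph were picked after their counts were seen, and since the counts and the length under peaks come from the same peak calls, both are descriptions with no test. Tns1, a tensin that links integrins to actin, was nearest to 11 gained and 0 lost regions. It held 72.1, 71.1 and 78.4 kb under peaks at day 6 and 87.1, 99.1 and 100.7 at day 9 (log2 0.37). Tns3 and Actn4, an actin-crosslinking actinin, had 7 gained regions each. Tns3 held 6.73, 5.55 and 6.81 kb at day 6 and 10.48, 14.7 and 13.7 kb at day 9 (log2 0.96), below the mean of 42.6 kb at day 0. Sfrp2, a secreted Wnt modulator, and Sipa1l1 also had 7 each. Length under peaks within the gene window need not follow, since Med13l and Gm10306 had 5 gained regions each and log2 differences of 0.07 and −0.52. Among lost regions, Bmper, a secreted modulator of BMP signalling, was nearest to 21 lost regions and to 12 kept regions that fell in height, and held 49.5, 48.8 and 51.9 kb at day 6 and 21.5, 29.7 and 27.4 kb at day 9 (log2 −0.93). Pde7b, a phosphodiesterase that degrades cAMP, had 14 lost regions and held 26.5, 23.9 and 25.8 kb at day 6 and 8.29, 10.3 and 10.6 kb at day 9 (log2 −1.35). Both were below these levels at the start, with means of 7.83 kb (Bmper) and 3.08 kb (Pde7b) at day 0. In all, 1725 genes were nearest to a gained and 1834 to a lost region, and 356 to both, which is 20.6% of the first and 19.4% of the second set.

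**Figure D4:**
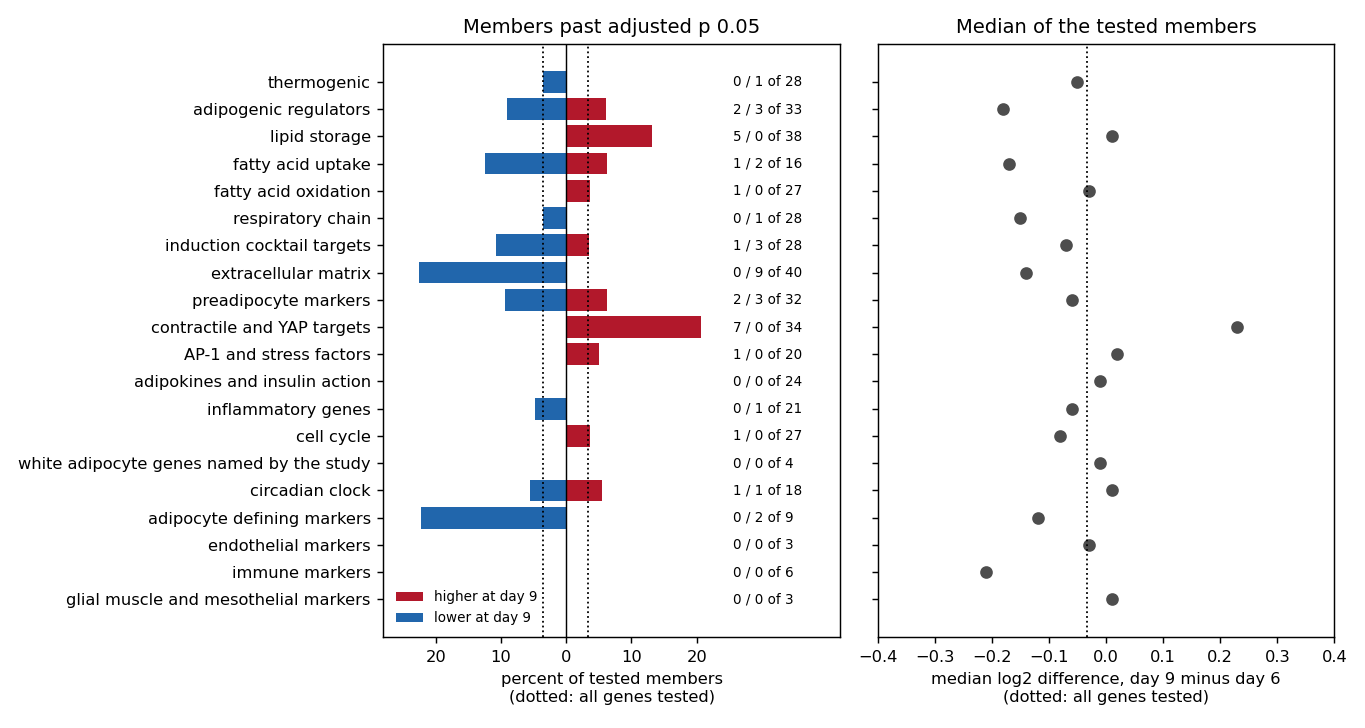
For 20 gene lists, the percentage of tested members higher (right of 0) or lower (left) at day 9 with adjusted p under 0.05, and the median log2 difference of the members; dotted lines give the same over all genes tested. Extracellular matrix genes were lower in 9 of 40 tested members, and contractile and YAP target genes higher in 7 of 34.

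Of 43 thermogenic genes 28 were tested, and 0 were higher and 1 lower at day 9 (limma, adjusted p under 0.05; 3 and 5 at an unadjusted p; median log2 −0.05). The share of lower genes, 3.57%, equalled the 3.58% of all genes, and 3.29% of all genes were higher. Ucp1, the uncoupling protein of brown fat, had no peak in any of the 6 libraries. Ppargc1a, a coactivator of mitochondrial genes, held 1.95, 2.09 and 1.93 kb at day 6 and 1.41, 2.21 and 2.05 kb at day 9 (log2 −0.08, limma adjusted p = 0.796). Prdm16, a regulator of brown fate, had a log2 difference of −0.43 (adjusted p = 0.173), the lipid droplet protein Cidea −0.56 (0.141) and the elongase Elovl3 0.74 (0.181), and none of them passed. The 1 lower gene was Cox8b, a cytochrome oxidase subunit, with 0.830, 0.597 and 0.668 kb at day 6 and 0.312, 0 and 0 kb at day 9 (log2 −1.02, adjusted p = 0.0395). Its call was lost in 5 of the 6 fits without 1 library, all but that without WT day 9 replicate 1 (log2 −1.26 to −0.91). Of 28 respiratory chain genes 1, Cox5a, was lower and 0 higher (7 and 0 at an unadjusted p; median −0.15), and of 27 genes of fatty acid oxidation 1, Hsd17b4, was higher and 0 lower (4 and 2 at an unadjusted p; median −0.03). These shares of 3.57 and 3.70% were also near those of all genes. Cox5a and Hsd17b4 kept their calls in 2 and 1 of the 6 fits.

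Of 33 tested adipogenic regulators 2 were higher and 3 lower (6.06 and 9.09% against 3.29 and 3.58% of all genes; median log2 −0.18). Pparg, the master regulator of fat cell formation, held 26.6, 23.5 and 27.1 kb at day 6 and 10.3, 14.5 and 15.8 kb at day 9 (log2 −0.92, SE 0.15, limma adjusted p = 0.0125). The day 9 libraries all lay below the day 6 libraries and above the day 0 mean of 2.82 kb. It was nearest to 3 lost regions and to 3 kept regions that fell in height, among them the lost region printed above, 0.829 kb from a transcript start (chr6:115362796-115363939), with folds of 6.00, 5.30 and 5.62 at day 6. That region was called in 0 libraries of WT days 0 and 3. In DKO cells it was called in 2 of 3 day 6 and 3 of 3 day 9 libraries. The Pparg call was lost without WT day 6 replicate 1 or WT day 6 replicate 3, with log2 values of −1.04 to −0.74 over the 6 fits and adjusted p of at most 0.0597. In the DKO libraries Pparg moved from a mean of 17.4 kb ± 6.44 to 25.2 kb ± 1.39 (SD, n = 3), and the difference of the steps was 1.51 (limma adjusted p = 0.00559; 0.37 and 0.0357 after division by covered length). Nfia, a brown fat nuclear factor, held 120.5, 120.3 and 131.8 kb at day 6 and 76.7, 96.3 and 96.1 kb at day 9 (log2 −0.47, adjusted p = 0.0328), a call kept in 1 of the 6 fits, that without WT day 9 replicate 1. Hmga2, a chromatin protein of proliferating progenitors, rose from 4.77, 3.11 and 4.61 kb to 8.80, 13.4 and 11.3 kb (log2 1.33, SE 0.18, adjusted p = 0.00729) with 5 gained and 0 lost regions. Zfp423, a regulator of preadipocyte commitment, had a log2 difference of 0.78 (adjusted p = 0.0164), which was kept in 2 of the 6 fits and was −0.55 with the 20000 strongest peaks. Cebpa (−0.02, adjusted p = 0.916) and Cebpb (−0.10, 0.522) did not pass.

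Lipid storage genes were higher in 5 and lower in 0 of 38 tested members (9 and 7 at an unadjusted p under 0.05; 13.2% higher against 3.29% and 0% lower against 3.58% of all genes; median log2 0.01). After division by covered length 9 were higher and 3 lower, and with the 20000 strongest peaks 1 and 1 of 36. Among all genes, these settings called 1182 higher and 953 lower of 13420, and 131 and 197 of 10549. Acaca, acetyl-CoA carboxylase, held 10.8, 11.9 and 13.2 kb at day 6 and 16.3, 20.6 and 19.7 kb at day 9 (log2 0.63, SE 0.12, limma adjusted p = 0.0186). Fasn, fatty acid synthase, held 3.87, 3.38 and 4.06 kb at day 6 and 4.70, 5.93 and 5.83 kb at day 9 (log2 0.48, SE 0.11, adjusted p = 0.0423). Elovl5 (0.60, adjusted p = 0.0332) and Acly, ATP citrate lyase (0.40, 0.0341), were also higher. Libraries of the 2 days did not overlap at any of the 5, as at each of the 441 higher genes. Over all tested genes, 11.1% had day 9 above without overlap. Of the 5 calls, 0 held in all 6 fits without 1 library, whose counts of higher members ran from 0 to 7. The droplet coat gene Plin1 did not pass (−0.15, adjusted p = 0.35). Among 16 genes of fatty acid uptake 1 was higher and 2 lower. Lpl, lipoprotein lipase, held 18.3, 20.05 and 20.05 kb at day 6 and 12.2, 14.0 and 12.5 kb at day 9 (log2 −0.58, adjusted p = 0.0105, and 0.0566 without WT day 6 replicate 2). Got2 was lower too (−0.73, 0.0094) and Slc27a1, a fatty acid transporter, higher (0.85, 0.00709). Cd36 (−0.18, 0.254) and Fabp4 (−0.12, 0.467) did not pass.

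Extracellular matrix genes fell in 9 of 40 members and rose in 0, with 22.5% lower against 3.58% of all genes. At an unadjusted p under 0.05, 13 fell and 7 rose, and the median log2 difference was −0.14. The list was nearest to 66 of 2743 lost and 25 of 2339 gained regions. These come from the same peak calls and carry no test. The share of all regions nearest to these genes is not given, so the counts cannot be read as a trait of the list. Mmp2, gelatinase A, held 18.3, 18.1 and 18.1 kb at day 6 and 7.001, 9.65 and 8.96 kb at day 9 (log2 −1.06, SE 0.12, limma adjusted p = 0.00363). Col8a1, a short-chain collagen, fell by 1.19 on the log2 scale (adjusted p = 0.0104), and Mmp3 and Lum were given above. The other members were Adamts12 (−0.87), Col15a1 (−0.72), Mmp19 (−0.71), Adamts15 (−0.69) and Col3a1 (−0.37), and both proteases and collagens were among them. Col8a1, Lum, Mmp2, Mmp3, Adamts12 and Adamts15 kept the call in all 6 fits without 1 library, which called 7 to 12 members lower. Without WT day 9 replicate 1, 12 members were lower and 6 higher, and after division by covered length 13 were lower and 7 higher. Among all genes, 527 of 13464 were lower and 895 higher without that library. After the division 953 of 13420 were lower and 1182 higher. With the 20000 strongest peaks 2 of 35 were lower and 2 higher, Mmp2 not among those called. Of all 10549 genes tested in that setting, 197 were lower and 131 higher. The balance toward lower members thus did not hold there. With peaks set to 250 bp either side of the summit Mmp2 alone of the 9 kept its call. Of the 6 fits, Col3a1 kept its call only in that without WT day 9 replicate 1, and its difference was 0.04 with the 250 bp setting. Dcn, decorin, had 10 lost regions (log2 −0.35, adjusted p = 0.0561), and Col1a1 was among members with a positive difference (0.39, 0.0514), neither past the threshold. Over the 40 genes, 705, 696 and 744 kb lay under peaks at day 6 and 547, 669 and 660 kb at day 9.

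Contractile genes and targets of YAP were higher in 7 and lower in 0 of 34 tested members, with 20.6% higher against 3.29% of all genes. At an unadjusted p under 0.05, 16 were higher and 1 lower, and the median log2 difference was 0.23. The list was nearest to 21 of 2339 gained and 7 of 2743 lost regions, again from the same peak calls and without a test. The share of all regions nearest to these genes is again not given, so the counts are no trait of the list. Lmod1, leiomodin, which nucleates actin in smooth muscle, held 1.28, 1.97 and 2.55 kb at day 6 and 4.41, 5.23 and 5.31 kb at day 9 (log2 1.2, SE 0.18, limma adjusted p = 0.0101). Ccn2, a matricellular YAP target, held 0.230, 0.465 and 0.278 kb at day 6 and 0.840, 1.16 and 0.769 kb at day 9 (log2 0.79, SE 0.17, adjusted p = 0.0336). Ajuba (0.65), Tpm1 (0.52), Cnn2 (0.49) and Smad7 (0.40) were also higher. Acta2, smooth muscle actin, missed the threshold (0.71, adjusted p = 0.0576), as did Tagln (0.59, 0.0962). The count depended on single libraries. It was 17 after division by covered length and 14 without WT day 9 replicate 1. Among all genes, 1182 of 13420 were higher after this division and 895 of 13464 without that library. The count lay between 1 and 14 over the 6 fits without 1 library. Lmod1 alone kept its call in all of them, though not with peaks set to 250 bp either side of the summit. With the 20000 strongest peaks 4 of 27 were higher and 0 lower, against 131 and 197 of all 10549 genes. The summed length of the list was 361 kb ± 23.6 at day 0, 225 kb ± 53.4 at day 3, 254 kb ± 10.6 at day 6 and 289 kb ± 34.3 at day 9 (SD, n = 3), so the day 9 mean lay between those of days 6 and 0, and the day 6 and day 9 libraries overlapped.

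Of 28 targets of glucocorticoid and cAMP signalling, through which agents of the differentiation medium act, 1 was higher and 3 lower (3.57 and 10.7%, against 3.29 and 3.58% of all genes; median log2 −0.07). Pde4b, a cAMP phosphodiesterase, held 23.5, 24.4 and 26.3 kb at day 6 and 12.6, 12.9 and 13.5 kb at day 9 (log2 −0.90, SE 0.08, limma adjusted p = 0.00161), with the call kept in all 6 fits without 1 library. Pde4d (−0.75, adjusted p = 0.0202) and the nuclear receptor Nr4a1 (−0.58, 0.0164) were also lower and the kinase Sik1 higher (0.49, 0.0144), and each of these lost its call in 3 of the 6 fits. Fkbp5 (0.06, 0.766), a chaperone induced by glucocorticoids, did not pass, although 6 kept regions nearest to it rose in height. Among preadipocyte markers 2 of 32 were higher and 3 lower (6.25 and 9.38%; median −0.06). Igf1, insulin-like growth factor 1, with 9 lost regions, held 20.4, 19.4 and 20.9 kb at day 6 and 8.84, 11.1 and 11.2 kb at day 9 (log2 −0.94, adjusted p = 0.00392). Cxcl12 (−0.62) and Wnt5a (−0.47) were lower and Sfrp2 (0.61) and Anxa3 (0.58) higher, with calls kept in 3, 1, 4 and 4 of the 6 fits, and Pdgfra (−0.06, adjusted p = 0.759) did not pass.

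In the remaining lists 0 or 1 member passed in each direction, shares of at most 5.56% against 3.29% higher and 3.58% lower of all genes. Saa3, an acute phase serum amyloid, fell from 5.64, 5.89 and 6.80 kb to 1.31, 2.01 and 1.92 kb (log2 −1.57, SE 0.14, limma adjusted p = 0.00161), the 1 of 21 inflammatory genes that passed. Hlf (−0.91, adjusted p = 0.00308) and Npas2 (0.80, 0.0288), factors of the circadian clock, were lower and higher among 18 clock genes. Maff (0.69, 0.0112) was higher among 20 AP-1 and stress factors, where Fos (0.00, adjusted p = 0.999) and Jun (0.01, 0.95) did not pass. Rrm2, a ribonucleotide reductase subunit, was higher among 27 cell cycle genes (0.80, 0.0134). Of 24 genes of adipokines and insulin action 0 passed in limma (3 higher and 4 lower at an unadjusted p under 0.05), among them the glucose transporter Slc2a4 (0.91, adjusted p = 0.0599). Leptin (Lep) had no peak in any of the 6 libraries, and 0 of the 4 white adipocyte genes that the study names, Adamts5, Galnt9, Slc6a6 and Pnp2, passed (1 at an unadjusted p). Npas2 and Rrm2 kept their calls in 2 and 4, Maff in 5 and Saa3 and Hlf in 6 of the 6 fits without 1 library. Over the 423 distinct list genes tested, 22 (5.20%) were higher and 24 (5.67%) lower.

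Kept regions could be compared by height. The rule did not use the height itself, but a kept region had to pass the caller's threshold in all 6 libraries. Weak regions that rose or fell across that limit are thus not among them. The height was the highest summit fold enrichment of a library in the region, on a log2 scale with each library's median set to 0. Of 44377 kept regions 2484 (5.6%) were higher and 2621 (5.91%) lower at day 9 (limma, adjusted p under 0.05). Without setting the medians equal, the split was 1779 higher and 2909 lower. Before this step the day 6 libraries had median folds of 8.15, 8.25 and 8.75 and the day 9 libraries of 7.64, 8.49 and 8.24. Promoters made up 40.1% of the higher and 46.7% of the lower regions, against 38.9% of all kept regions. The DKO day 6 libraries called 73.3% of the higher and 90.3% of the lower regions on average, against 75.5% of all kept regions. The lower regions were also stronger, with a median fold of 10.2 against 8.67 in higher and 8.10 in all kept regions. The part of peak strength in the DKO calls was not tested.

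**Figure D5:**
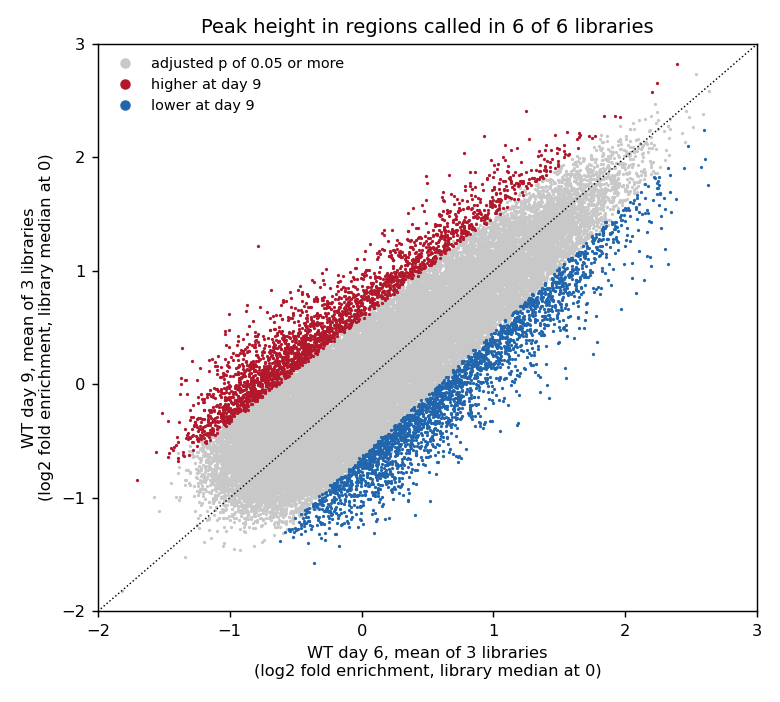
Mean log2 fold enrichment over 3 WT libraries, with each library's median at 0, at day 6 (horizontal) and day 9 (vertical) for the 44377 regions called in 6 of 6 libraries. Coloured points are the 2484 higher and 2621 lower regions past adjusted p 0.05; the highest red point to the left is the region upstream of Rac2, with a log2 difference of 2.01.

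The largest rise was at a region 9.13 kb upstream of Rac2 (chr15:78581741-78582369), a small GTPase best known in blood cells. Its summit reached folds of 4.50, 4.50 and 5.67 at day 6 and 21.2, 19.2 and 16.6 at day 9 (log2 2.01, SE 0.20, limma adjusted p = 2.42e-06). The Rac2 gene window moved the other way, from a mean of 1.49 kb ± 0.202 to 0.613 kb ± 0.132 under peaks (SD, n = 3, log2 −0.84, adjusted p = 0.0109). Regions near Mamstr, a MEF2 coactivator (1.68), Rgs18 (1.62), Fadd, a death receptor adaptor (1.57), and Rbm12b1 (1.52) followed. Of these 4, those near Mamstr, Fadd and Rbm12b1 were called in 0 of 3 DKO day 6 libraries and that near Rgs18 in 1.

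The largest falls were near Rgmb, a BMP co-receptor (−1.55), Slit2 (−1.55), Pfpl (−1.54), and at the promoters of Spdl1, a kinetochore protein (−1.53), and Aasdhppt, which activates acyl carrier proteins (−1.53). The region 70.1 kb upstream of Slit2, a secreted guidance ligand (chr5:47912351-47913272), had folds of 12.04, 10.6 and 13.6 at day 6 and 4.06, 3.43 and 4.48 at day 9 (SE 0.21, limma adjusted p = 7.75e-05). A lost region lay 80.7 kb upstream of the same gene, and the Slit2 gene window fell from 5.37 kb ± 0.0695 to 3.42 kb ± 0.599 (SD, n = 3, log2 −0.60, adjusted p = 0.0241). Spdl1 folds went from 16.6, 19.4 and 21.1 to 6.06, 6.64 and 6.35, so large falls also occurred at promoters called in every library. The 5 regions of this direction were called in 3 of 3 DKO day 6 libraries, and that near Slit2 in 1 of 3 at DKO day 9, where the other 4 had 3. By number, kept regions that rose were most frequent nearest to Med13l (9) and Gadd45g (7), and those that fell nearest to Bmper (12), with 6 each at Akap13, Col3a1, Ebf1, Nfia, Nt5c2 and Zeb2.

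Sequence motifs were counted around the summits, and 2 of 10 had shares that did not overlap between days. Among the 20000 strongest peaks of a library, the EBF motif lay within 100 bp of the summit in 5.06, 5.15 and 5.25% at day 6 and 5.6, 5.62 and 5.35% at day 9 (difference 0.370 percentage points, exact permutation p = 0.1, adjusted p = 0.5 over 10 motifs). The E-box was held by 2.78, 2.74 and 2.76% at day 6 and 2.96, 2.85 and 2.81% at day 9 (difference 0.113, exact permutation p = 0.1, adjusted p = 0.5), and was lower at day 9 within 50 bp of the summit (−0.12). The libraries of the days overlapped for the other 8 motifs. By class, the EBF motif was found at 3.63% of gained, 2.26% of lost and 4.48% of kept regions (3.56% of all). The TEAD motif was found at 12.4, 11.6 and 10.7% (11.3% of all) and the AP-1 motif TGANTCA at 6.54, 6.05 and 4.29% (5.54% of all). Kept regions lay more often at promoters. Among regions more than 5 kb from a transcript start, the EBF shares were 3.42, 2.32 and 3.28% (3% of all). There the TEAD shares were 12.5, 11 and 11.8% (11.8% of all) and the AP-1 shares 6.73, 6.18 and 5.29% (6.14% of all). The printed Ptgis and Sgo2b stretches held a TEAD match each, 1 in a gained and 1 in a lost region.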

How the data were processed

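H3K27ac ChIP-seq was analysed from the deposited MACS2 narrowPeak lists, 1 per library. Per the methods of the study, cells were fixed, the chromatin was precipitated with an anti-H3K27ac antibody, and single-end reads were aligned to mm10 with BWA before MACS2 called peaks in each library apart. The submitters' processing notes name BWA 07.17, MACS2 2.1.1.20160309, bcl2fastq 2.17 and cutadapt 1.18. The authors' lists give for each peak the fold enrichment over local background at the summit, −log10 p, −log10 q and the summit position, and hold only peaks past a −log10 q of about 2. No read counts are in these lists, so weak mark below that limit is not seen, and depth was taken as background reads per kb worked out from fold and −log10 p.

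Of 24 libraries 18 were read, with 1711803 peaks in all, and the DKO libraries of days 0 and 3 as well as the inputs were not analysed here. Peaks were joined at 1 bp overlap and assigned to the nearest transcript start and to windows of 21911 protein-coding genes (GENCODE M21). Bases were read from RefSeq GRCm38.p6. Genes with a mean of at least 0.25 kb under peaks were tested on log2(kb + 0.5), and kept regions on log2 of the highest summit fold, each library's median set to 0, with limma 3.58.1 (trend, R 4.3.3) and Benjamini-Hochberg adjustment at 0.05. Single values were tested by exact permutation, two-sided, of 3 against 3 libraries (20 relabellings) or of genotype within days (400). The fits were tested on simulated data. Named were the 10 genes with the largest change in each direction among those past the threshold, up to 4 members per list and direction with the best known members of each list, and the 5 strongest or most changed regions per class; a few genes that the rule names are not reported here. Regions, genes and lists were chosen with earlier results of these data known. The closing section gives the alternatives tried, of which leaving out libraries for the list counts was chosen after seeing the data. Other tools were Python 3.11.15, numpy 2.4.6, pandas 2.3.3 and matplotlib 3.10.9.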

Additional observations from a re-analysis of the deposited data

Results flagged for a closer look

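The step from day 6 to day 9 differed between genotypes in each of 3 measures. They come from the same peak lists and are not separate evidence. The number of peaks per library changed by 47711 more in DKO than in WT cells, and the covered length by 35.8 Mb more (exact permutation of genotype within days, p = 0.01 and 0.005, adjusted p = 0.01 each). The promoter share changed by −12.3 percentage points more in DKO cells, falling by 11.9 points there and moving by 0.471 in WT cells (exact permutation p = 0.01, adjusted p = 0.01). For single genes, the DKO step in length under peaks lay above the WT step at 7962 of 13361 genes and below it at 3 (limma interaction, adjusted p under 0.05), and at 1318 and 3239 genes after division by covered length. The DKO day 6 libraries held 74867, 71869 and 47448 peaks, against 98503 to 105511 at WT day 6. The part of this difference in the promoter share was not tested.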

How the results depend on the processing

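Peak lists limit these results to mark past the caller's threshold, and the classes depend on the rule: with peaks joined up to 500 bp apart there were 1218 gained regions, 1419 lost regions and 29356 kept regions, with the 20000 strongest peaks 493, 522 and 12137, and with matching at a reciprocal overlap of 50% 15121 gained and 15373 lost. Leaving out 1 library gave 3137 to 5909 gained (highest without WT day 9 replicate 1) and 3283 to 5491 lost regions (highest without WT day 6 replicate 2). The differences in extent had no stable sign: peaks per library −164.7 at −log10 q of at least 5 and −3752 to 6384 without 1 library, covered length per library 0.376 Mb with peaks set to 250 bp either side of the summit and −4.09 to 1.62 Mb, promoter share of peaks −0.508 to 1.06 points. Lost regions called in DKO libraries gave −12.07 points with the 20000 strongest peaks.

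Genes higher and lower at day 9 numbered 131 and 197 with the 20000 strongest peaks, 707 and 868 with equal peak numbers, 135 and 112 with 250 bp windows, 1182 and 953 after division by covered length, 193 and 147 with all 12 WT libraries in the fit, and 163 to 895 and 130 to 527 without 1 library (both highest without WT day 9 replicate 1). List members numbered 62 and 46 after division by covered length, 10 and 12 with the strongest peaks, and 5 to 49 and 13 to 33 without 1 library. Of 64 named genes, 10 kept their call with 250 bp windows and 64 after division by covered length. Signs turned for Zfp423 (−0.55) and Tpm1 (−0.003) with the strongest peaks and for Col3a1 (0.04) and Cnn2 (−0.13) with 250 bp windows. Kept regions higher and lower numbered 869 and 916 with the strongest peaks, 1112 and 893 by reads at the summit, and 1452 to 1777 and 1605 to 1849 without 1 library. Genotype differences numbered 1318 and 3239 genes after division by covered length. The E-box difference was −0.12 within 50 bp, and 5 motifs did not overlap without WT day 9 replicate 1, against 2 to 3 without another library. The causes were not tested.

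Libraries with the same replicate number did not deviate together (correlations of gene values 0.0314, −0.0444 and 0.0151). With a replicate block 410 genes were higher and 450 lower, and 2409 and 2550 kept regions.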
